A study of Mus musculus with 24 samples.

Results

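The 9 B cell genes described here are Cd79a, Cd79b, Ms4a1, Ighm, Igkc, Pax5, Ebf1, Cd22 and Fcer2a, taken by symbol from the 55414 genes of the UMI count table. They were chosen on their levels in these same libraries, which earlier results had shown group by group, so those levels and their changes between groups are given as a description, with fitted changes and standard errors and with no p-value. The libraries hold RNA of splenic Tconv CD4+ cells (CD4+ CD25-), labelled TE, which the methods describe as isolated with magnetic beads rather than by flow sorting. CD4+ cells were enriched by negative selection, a step that is meant to hold back B cells and other spleen cells, flow cytometry was used to check that enrichment, and CD25+ cells were then taken out. All mice shared the nuclear genome of C57BL/6J and carried the mtDNA of C57BL/6J (genotype label WT, here mtDNA-B6) or of the NZB strain (label NZB, here mtDNA-NZB). Cells were resting (label RES) or activated (label ACT) with beads carrying antibodies to CD3 and CD28 and with IL-2, for 72 h according to the methods. Whether resting cells were also kept in culture is not stated there. Activation below thus covers beads, IL-2 and any difference in culture time, which cannot be told apart. There were 6 libraries in each of the 4 groups, and neither the age of the mice nor a separate animal for each library is given in the labels, so the spread between libraries may in part be technical.

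B cells are lymphocytes that make antibodies, and they are abundant in the spleen, where they lie beside the T cell zones. Their antigen receptor is a membrane immunoglobulin made of heavy and light chains, and it signals through the paired chains encoded by Cd79a and Cd79b. EBF1 and PAX5 are transcription factors that set up and keep B cell identity. Plasma cells, the antibody-secreting end stage of the lineage, shut down much of this program while they transcribe immunoglobulin genes at a very high rate. CD3 and CD28 beads engage T cells, and B cells carry no CD3.

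The identity of the 9 genes was read from the GRCm39 annotation. Cd79a lies at chr7:24596740-24601622 on the plus strand, Cd22 at chr7:30564827-30579767 on the minus strand, Pax5 at chr4:44524757-44710487 on the minus strand, and Ebf1 at chr11:44508138-44898918 on the plus strand. Cd79b lies at chr11:106202167-106205588, Ms4a1 at chr19:11227039-11243605 and Fcer2a at chr8:3731737-3744183, all on the minus strand. The constant region gene of the mu heavy chain, Ighm, lies at chr12:113382178-113386350 on the minus strand, and that of the kappa light chain, Igkc, at chr6:70703419-70703950 on the plus strand. Within the last 1000 transcribed bases, the stretch from which reads were counted, long noncoding or unclassified genes on the opposite strand overlap Cd79a, Igkc, Pax5 and Cd22, and their reads could not be told apart from those of the member because strand in the counting is not given in the sources used here.

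RefSeq promoters (build GRCm38.p6, 250 bases before to 50 after each start) were found for 5 of the 9 genes, namely Cd79a, Cd22, Fcer2a, Pax5 and Ebf1, with 8 promoters among them. Because 7 of the 9 genes rose and fell together from library to library, these windows were searched on both strands for 3 motifs of lymphoid and B cell factors, and the windows with a match are printed with the motif in capitals, each read 5′ to 3′ on the strand of its gene and placed on GRCm39 by an exact match.
Cd22 promoter, chr7:30578484-30578511, minus strand: cctgcaagaTCCCTGGGGactcacacag
Cd79a promoter, chr7:24596857-24596884, plus strand: acggctgaacAGGAAGTGaggcggagtt
The Cd22 window holds the core of the EBF1 site, searched as TCCCNNGGG, which 6.56% of all 32851 promoters hold, and as the site is a palindrome the same bases match on the other strand 1 base further on. The Cd79a window holds an ETS core, AGGAAGTG, which 4.07% of all promoters hold. The octamer ATGCAAAT, held by 1.74% of all promoters, was in none of the 8. A match is a description of letters, and the absence of one says only that these letters are not in this window.

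Depth ranged from 51409 to 6449395 UMI counts per library. The smallest was mtDNA-NZB resting replicate 2, in which 1 count of a gene weighs 16.9 CPM, the unit used below, which is a gene's count relative to the TMM-scaled total of its library, and in which the 7 members other than Ighm and Igkc together had 36 counts. The next smallest was mtDNA-NZB activated replicate 1, with 641467 counts. The mean counts in the study's supplement match 21 libraries and not all 24, and the 3 left out there are mtDNA-NZB resting replicates 2 and 6 and mtDNA-NZB activated replicate 6. T cell RNA was present in every library. The 13 genes of a T cell list (Cd3e, Cd4, Trac and others) summed to between 6336 and 12075 CPM. The lowest value was in mtDNA-NZB resting replicate 6. Cd4 had a median of 628.6 CPM in the mtDNA-B6 resting and 583.4 CPM in the mtDNA-NZB activated libraries. The B cell genes summed to more CPM than this T cell list in every resting library and to less in every activated one. The purity of the labelled cell fraction was not tested.

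All 9 B cell genes were detected in all 24 libraries and all passed the filter on low counts, as 10566 genes did. Together they took a median of 1.85% of the counts in the mtDNA-B6 resting libraries, 0.482% in the mtDNA-B6 activated, 1.65% in the mtDNA-NZB resting and 0.330% in the mtDNA-NZB activated libraries. The sum lay between 12244 and 21367 CPM at rest and between 3144 and 8837 CPM after activation with mtDNA-B6, and between 10267 and 34485 CPM at rest and between 1339 and 7526 CPM after activation with mtDNA-NZB. Resting and activated libraries did not overlap in either haplotype. This sum was almost wholly Ighm and Igkc: the other 7 genes together had medians of 454.7, 569.0, 584.1 and 522.4 CPM in the same 4 groups, and their groups overlapped in every comparison. In bulk RNA, fewer cells that carry a transcript and less of it per cell cannot be told apart, and which cells carried these transcripts was not measured.

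**Figure D1:**
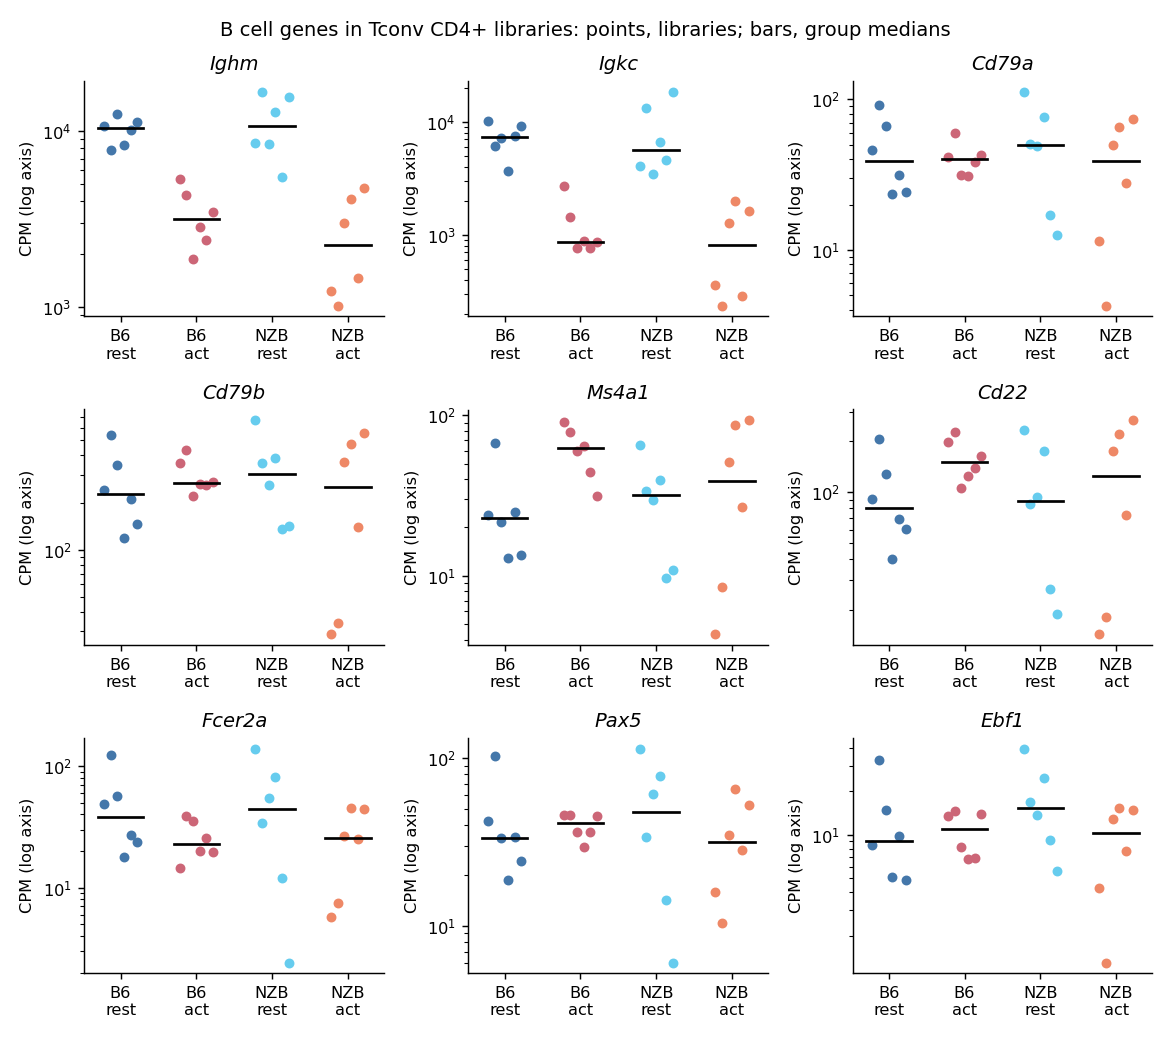
CPM (log axis) of each B cell gene in the 24 libraries by group, with points for libraries and bars for group medians (B6, mtDNA-B6. NZB, mtDNA-NZB. rest, resting. act, activated). Activated libraries lie below all resting ones for Ighm and Igkc, whereas for the other 7 genes the groups overlap, and 2 of the mtDNA-NZB activated libraries lie low for all 7.

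Ighm encodes the constant region of the IgM heavy chain, the part of the receptor that all newly formed B cells carry. With mtDNA-B6, its level was lowest at 7793, median 10431 and highest at 12495 CPM at rest, against 1879, 3164 and 5387 CPM after activation. With mtDNA-NZB it was 5468, 10701 and 16785 CPM at rest against 1019, 2246 and 4789 CPM after activation. Every activated library was lower than every resting library of its haplotype. Of all genes tested, 10.6% were called lower on activation with mtDNA-B6 and 14% with mtDNA-NZB, by a rule on p and fold and not on overlap. The share of all genes whose states do not overlap was not counted. Since the levels chose the members, nothing is read from this separation. The medians of Ighm differed 3.30-fold with mtDNA-B6 and 4.76-fold with mtDNA-NZB. The fitted log2 fold changes were -1.58 (SE 0.339, n = 6 and 6) and -2.11 (SE 0.345, n = 6 and 6).

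Igkc, which encodes the constant region of the kappa light chain, differed more between the states. With mtDNA-B6 its lowest, median and highest levels were 3682, 7386 and 10155 CPM at rest and 770.0, 868.5 and 2689 CPM after activation. With mtDNA-NZB they were 3492, 5597 and 18529 CPM at rest and 236.2, 821.8 and 2016 CPM after activation. The groups again did not overlap, and the fitted log2 fold changes were -2.57 (SE 0.514) and -3.12 (SE 0.527). The 18529 CPM belonged to mtDNA-NZB resting replicate 6, and without the 3 libraries that the study left out the mtDNA-NZB change of Igkc was -2.48 (SE 0.511) and that of Ighm -2.02 (SE 0.348). The ratio of Igkc to Ighm counts was 0.442 to 0.948 in mtDNA-B6 resting and 0.247 to 0.499 in mtDNA-B6 activated libraries, which overlap.

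Cd79a and Cd79b encode the signalling chains that every B cell receptor needs to reach the surface. Cd79a was at 23.5, 38.8 and 92.0 CPM (lowest, median, highest) in mtDNA-B6 resting and at 31.2, 40.1 and 60.0 CPM in mtDNA-B6 activated libraries. With mtDNA-NZB it was at 12.4, 49.9 and 112.5 CPM at rest and at 4.24, 38.8 and 74.2 CPM after activation. The fitted log2 changes on activation were -0.21 (SE 0.482) and -0.40 (SE 0.504), within 1 standard error of 0 over all libraries. Leaving out the study's 3 libraries gave -0.95 (SE 0.523) with mtDNA-NZB. Cd79b ranged from 118.6 through a median of 225.9 to 538.2 CPM at rest and from 218.8 through 267.4 to 433.8 CPM after activation with mtDNA-B6. With mtDNA-NZB its values were 136.1, 306.5 and 672.6 CPM at rest and 28.8, 252.7 and 555.4 CPM after activation. Its fitted changes were 0.17 (SE 0.515) and -0.26 (SE 0.528), the latter -0.78 (SE 0.575) without the 3 libraries. The receptor's signalling chains thus stayed within the resting range in mtDNA-B6 libraries in which the heavy and light chain levels lay below it.

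Ms4a1, which encodes the B cell surface protein CD20, had the largest positive fitted change of the 9. With mtDNA-B6 it was at 12.9, 22.8 and 67.5 CPM at rest and at 31.3, 62.4 and 90.4 CPM after activation, a fitted log2 change of 1.17 (SE 0.503). With mtDNA-NZB it was at 9.62, 31.7 and 65.4 CPM at rest and at 4.31, 39.0 and 93.1 CPM after activation, a fitted change of 0.60 (SE 0.530). The resting and activated ranges overlapped in both haplotypes, with mtDNA-B6 through a single resting library, replicate 2 at 67.5 CPM. Without the 3 left-out libraries the mtDNA-NZB value was 0.04 (SE 0.565).

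Cd22 encodes an inhibitory receptor of B cells that binds sialic acid and dampens signalling from the B cell receptor. It was at 39.9, 80.1 and 205.5 CPM at rest and at 105.1, 150.9 and 227.6 CPM after activation with mtDNA-B6, with a fitted change of 0.69 (SE 0.554). With mtDNA-NZB the values were 18.9, 89.0 and 234.0 CPM at rest and 14.4, 124.2 and 266.6 CPM after activation, with a fitted change of 0.27 (SE 0.574) that became -0.35 (SE 0.586) without the 3 libraries.

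Fcer2a, which encodes CD23, the low-affinity IgE receptor of mature follicular B cells, had the most negative fitted change among the other 7 genes. It was at 18.0, 38.2 and 123.1 CPM at rest and at 14.5, 22.9 and 38.5 CPM after activation with mtDNA-B6 (fitted change -0.96, SE 0.566). With mtDNA-NZB it was at 2.41, 44.1 and 139.2 CPM at rest and at 5.75, 25.8 and 44.9 CPM after activation (-1.08, SE 0.587). Leaving out the study's 3 libraries gave -1.63 (SE 0.570) with mtDNA-NZB. Relative to Cd22, Fcer2a was lower: with mtDNA-B6 there were 0.391 to 0.599 Fcer2a counts per Cd22 count at rest and 0.0733 to 0.333 after activation, with no overlap. With mtDNA-NZB the same ratio was 0.128 to 0.595 at rest and 0.151 to 0.411 after activation, which overlap.

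Of the transcription factors Pax5 and Ebf1, Ebf1 had the lowest median of the 9 genes in every group. The group medians of Pax5 lay between 31.6 and 47.5 CPM. Pax5 was at 18.8, 33.5 and 102.3 CPM at rest and at 29.5, 40.8 and 46.1 CPM after activation with mtDNA-B6, and at 6.02, 47.5 and 113.8 CPM and 10.4, 31.6 and 65.8 CPM with mtDNA-NZB. Its fitted changes were -0.10 (SE 0.472) and -0.61 (SE 0.494). Ebf1 was at 4.89, 9.12 and 33.1 CPM at rest and at 6.78, 10.9 and 14.7 CPM after activation with mtDNA-B6. With mtDNA-NZB it was at 5.62, 15.4 and 39.4 CPM at rest and at 1.30, 10.3 and 15.2 CPM after activation, and its fitted changes were -0.26 (SE 0.477) and -0.91 (SE 0.500). Leaving out the study's 3 libraries gave mtDNA-NZB changes of -1.08 (SE 0.484) for Pax5 and -1.35 (SE 0.546) for Ebf1. Ebf1 had 1 count in mtDNA-NZB resting replicate 2, so its value there rests on that count alone.

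**Figure D2:**
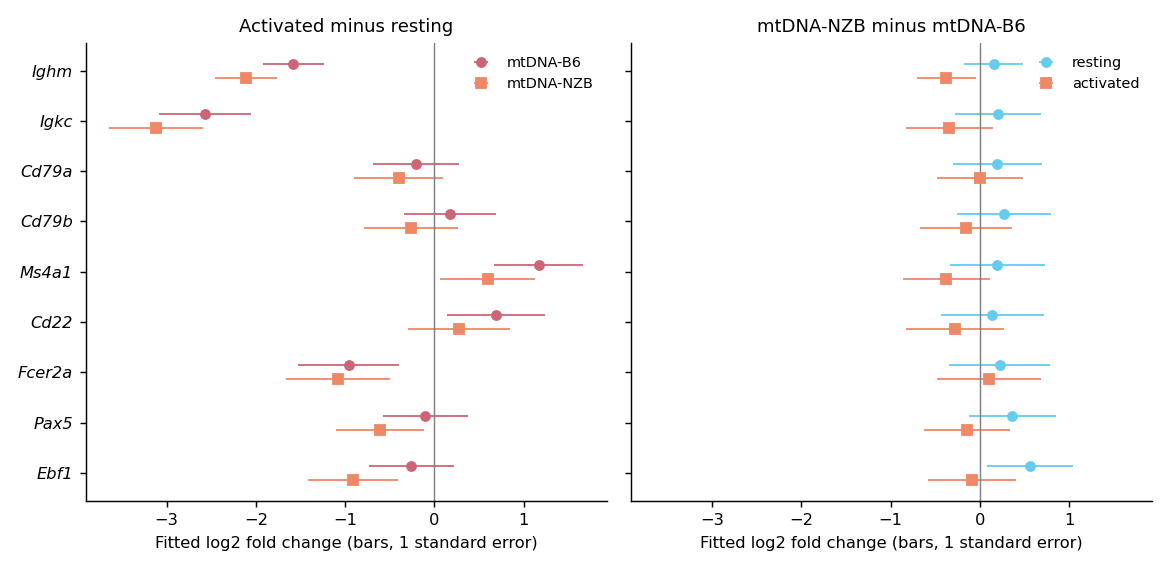
Fitted log2 fold change of each B cell gene, with bars of 1 standard error, for activation in each haplotype (left) and for mtDNA-NZB against mtDNA-B6 in each state (right). On activation, Ighm and Igkc lie between -3.12 and -1.58 and the other 7 genes between -1.08 and 1.17, while between haplotypes all 9 lie between -0.37 and 0.56.

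The 2 kinds of member also parted within libraries. Ighm and Igkc together had 12.03 to 68.9 counts per count of the other 7 genes in mtDNA-B6 resting libraries and 5.35 to 10.6 in mtDNA-B6 activated ones, so that the groups did not overlap. With mtDNA-NZB the ratio was 9.19 to 173.9 at rest and 5.35 to 18.8 after activation. The activated libraries above 10.6 were replicates 1 and 2, which had ratios of 18.8 and 14.9 and which also held the least of the other 7 genes, 84.8 and 84.2 CPM, where the other 4 mtDNA-NZB activated libraries held 328.5 to 1101 CPM. Their share of the 7 genes was 0.00920% (95% Wilson interval 0.00713 to 0.0119%) and 0.00855% (0.00756 to 0.00965%). The intervals cover counting error only and take the corrected counts as counted molecules. Without these 2 libraries the log2 ratio of the group means of the 7 genes, activated to resting with mtDNA-NZB, was 0.29 rather than -0.22, and without the 3 libraries that the study left out it was -0.79. Leaving out 1 library at a time gave -0.55 to 0.16, with 0.16 without mtDNA-NZB resting replicate 1, so no direction is read for the 7 genes with mtDNA-NZB. The same log2 ratio for Ighm and Igkc was -2.47 over all libraries, -2.09 without those 2 and -2.17 without those 3, and between -2.71 and -2.24 with 1 library left out at a time.

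**Figure D3:**
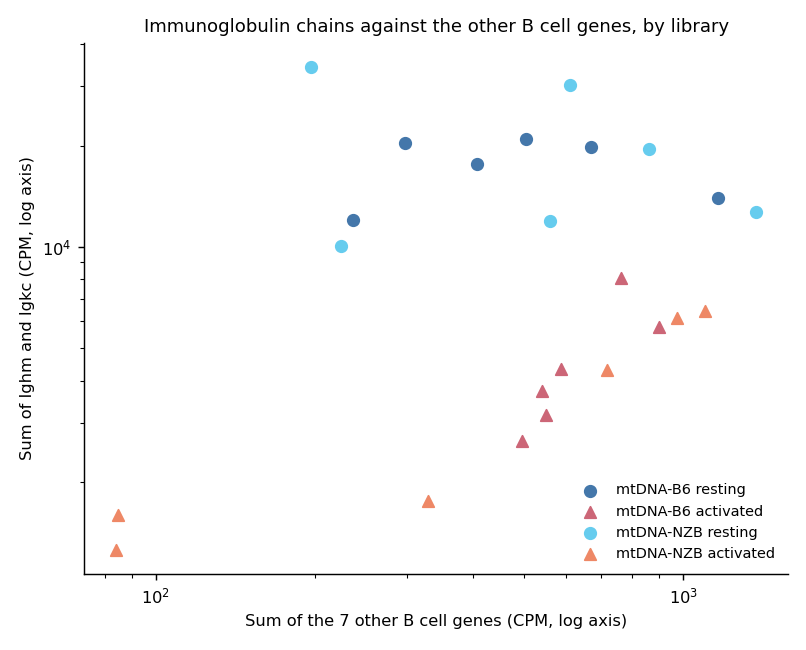
Summed CPM of Ighm and Igkc against summed CPM of the other 7 B cell genes, 1 point per library, both axes logarithmic (circles, resting. triangles, activated). Activated libraries lie below resting libraries with like amounts of the 7 genes, and mtDNA-NZB activated replicates 1 and 2 lie apart at 84.8 and 84.2 CPM of the 7 genes.

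A second deposited count table, which the sources used here do not describe, held more counts per library than the UMI table. Its total divided by the UMI total separated the libraries into 3 sets of 8, with ratios of 1.88 to 1.96, 2.11 to 2.24 and 2.68 to 2.80, and these sets are spread unevenly over the groups. Within a set that held both states, the log2 ratio of means for Ighm and Igkc was -2.39 with mtDNA-B6 and -1.55, -1.77 and -2.99 with mtDNA-NZB. For the other 7 genes it was -0.22 with mtDNA-B6, against 0.23 over all libraries, and 0.36, -1.38 and -0.24 with mtDNA-NZB. Each of these rests on between 1 and 4 libraries a group.

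Over all 24 libraries, each of the 9 genes differed between haplotypes by less than 2 standard errors. In resting cells all 9 had positive fitted changes, mtDNA-NZB against mtDNA-B6, from 0.14 for Cd22 to 0.56 for Ebf1, with standard errors of 0.331 to 0.574. In activated cells 7 of 9 were negative, from -0.37 to 0.10, with standard errors of 0.331 to 0.581. For each member the 2 haplotypes overlapped in both states. The difference between the activation responses, mtDNA-NZB minus mtDNA-B6, was negative for all 9 and lay between -0.65 and -0.12 with standard errors of 0.468 to 0.814. Without the 3 left-out libraries it was 0.08 (SE 0.657) for Igkc, and the other 8 lay between -1.13 and -0.44 with standard errors of 0.452 to 0.771. The 9 genes move with one another, so these counts of signs are not separate pieces of evidence. Without the 3 left-out libraries Ighm and Igkc were at -0.19 and -0.64 in resting cells, where the other 7 were at 0.41 to 0.79. In activated cells all 9 were negative in that fit, from -0.72 for Ms4a1 to -0.13 for Fcer2a, with Ighm at -0.64 (SE 0.313). Without mtDNA-NZB activated replicates 1 and 2, the log2 ratio of means of the 7 genes between activated haplotypes was 0.29 rather than -0.22.

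Other genes of the B lineage, apart from the 9, were tested by quasi-likelihood in edgeR, with p-values adjusted for all 10566 genes by Benjamini-Hochberg. Their lists were also chosen with earlier results of these data known, so these tests are not independent of the choice of the 9. A gene was called where its adjusted p reached 0.05 and its log2 change was 1 or more in size. Of 54 such genes, 50 were tested. On activation with mtDNA-B6, 11 fell and 5 rose, where of all genes tested 10.6% were called lower and 7.06% higher. The falls stayed at 11 by DESeq2 and with the library set as a term, but the rises were then 3 and 2. With mtDNA-NZB, 14 fell and 1 rose, against 14% lower and 9.46% higher of all genes. The median log2 change of the 50 was -0.28 and -0.66, beside -0.03 and -0.06 over all genes. Immunoglobulin constant region genes made up 7 of the 11 falls with mtDNA-B6 and 8 of the 14 with mtDNA-NZB, out of 9 such genes tested besides the 2 members, and none of them rose. Leaving out mtDNA-NZB activated replicate 6 alone brought the falls with mtDNA-NZB to 22 and leaving out the study's 3 libraries to 24, where 14.8% and 14.6% of all genes were called lower.

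Igha, the constant region of the IgA heavy chain, had the largest fall of the 50 in both haplotypes. It was at 4616 ± 1623 CPM (SD, n = 6) at rest and at 86.1 ± 45.4 CPM (n = 6) after activation with mtDNA-B6, a log2 change of -5.75 (SE 0.533, adjusted p = 4.00e-09). With mtDNA-NZB it was at 4062 ± 2445 and 164.5 ± 105.9 CPM, a change of -4.65 (SE 0.508, adjusted p = 4.44e-08). Relative to Ighm, there were 0.373 to 0.604 Igha counts per Ighm count at rest and 0.00764 to 0.0421 after activation with mtDNA-B6, with no overlap. With mtDNA-NZB there were 0.160 to 0.523 at rest and 0.0141 to 0.261 after activation, where replicates 1 and 2 had the 0.261 and 0.225.

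The 3 tested lambda constant genes were called lower in both haplotypes, as were Ighg2b and the other IgG constant genes tested except Ighg1, which was not called with mtDNA-B6 (log2 change -1.48, adjusted p = 0.0752, with overlapping ranges). Ighg2b, a constant region of IgG, went from 911.2 ± 343.3 to 72.6 ± 31.2 CPM with mtDNA-B6 (log2 change -3.65, SE 0.442, adjusted p = 3.17e-07). It went from 1271 ± 928.2 to 64.1 ± 26.1 CPM with mtDNA-NZB (-4.31, SE 0.462, adjusted p = 3.44e-08). Ighg2c, another IgG constant region, fell by 3.76 on the log2 scale with mtDNA-NZB (SE 0.667, adjusted p = 3.96e-05), and Iglc2, a lambda constant region, fell by 2.65 with mtDNA-B6 (SE 0.410, adjusted p = 9.76e-06). Ighd, the delta heavy chain that mature naive B cells carry beside IgM, did not pass the test in mtDNA-B6, with 67.4 ± 47.3 CPM at rest and 43.7 ± 18.9 CPM after activation (-0.62, SE 0.611, adjusted p = 0.418), and it was added here after its values were seen. The lambda constant genes are near copies of one another, and likewise the IgG constant genes, so reads may be divided between them.

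Genes of plasma cells were given as a list of their own, of which 8 of 9 were tested and 4 fell in each haplotype. Of all genes, 10.6% were called lower with mtDNA-B6 and 14% with mtDNA-NZB. Sdc1, which encodes the plasma cell surface protein CD138, fell from 19.8 ± 4.19 to 3.95 ± 1.96 CPM with mtDNA-B6 (log2 change -2.31, SE 0.341, adjusted p = 5.16e-06). It fell from 23.4 ± 9.91 to 2.91 ± 2.19 CPM with mtDNA-NZB (-2.67, SE 0.370, adjusted p = 1.50e-06). Tnfrsf17, the receptor BCMA that plasma cells need to survive, fell by 5.54 with mtDNA-B6 (SE 0.597, adjusted p = 5.19e-08), from 10.5 ± 4.11 to 0.202 ± 0.230 CPM. Jchain, which joins IgM and IgA into polymers, fell by 3.36 with mtDNA-B6 (SE 0.975, adjusted p = 6.28e-03). With mtDNA-NZB its change was -5.15 (SE 1.13, adjusted p = 4.44e-04), and without resting replicate 2, which alone had 897.7 CPM, it was -3.24 (SE 0.470, adjusted p = 3.82e-06). The summed plasma cell list, which includes Xbp1 and other genes of secretory cells, was at a median of 510.1 CPM at rest and 516.0 CPM after activation with mtDNA-B6, and at 706.6 and 525.4 CPM with mtDNA-NZB. The part of plasma cells in the fall of Ighm and Igkc was not tested.

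Among genes of B cell receptor signalling, B cell surface proteins and B cell transcription factors, few genes were called over all 24 libraries. Of 19 signalling genes, 2 fell and 1 rose with mtDNA-B6 and 3 fell with mtDNA-NZB, which is near the 10.6% lower and 7.06% higher of all genes with mtDNA-B6 and the 14% lower with mtDNA-NZB. Dok3, an inhibitory adaptor, and Cr2, the complement receptor CD21 of marginal zone and follicular B cells, fell in both haplotypes. Dok3 and Cr2 were chosen for description after their values were seen. Of 12 tested surface genes, 2 rose and 2 fell with mtDNA-B6, and 1 rose and 3 fell with mtDNA-NZB. Without the study's 3 libraries, 7 of 19 signalling and 7 of 12 surface genes were called lower with mtDNA-NZB. In that fit 1 of 10 transcription factors was called lower, and 14.6% of all genes were.

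Of 10 tested transcription factors, 2 rose with mtDNA-B6, where 7.06% of all genes were called higher. With mtDNA-NZB, where 9.46% of all genes were called higher, none of the 10 was called by edgeR or by DESeq2. By edgeR 3 of them had an unadjusted p under 0.05. With mtDNA-NZB, Irf8 lay just under the limit on fold (log2 change 0.998, SE 0.248, adjusted p = 1.46e-03), and with median-of-ratios scaling 1 factor was called higher. Ikzf3 (0.77, adjusted p = 2.07e-03) and Tcf3 (0.56, adjusted p = 3.30e-04) passed on p alone with mtDNA-NZB, and Tcf3 was added after its values were seen. Irf8, a factor of B cells and myeloid cells, rose from 146.7 ± 30.4 to 356.0 ± 78.7 CPM with mtDNA-B6 (log2 change 1.28, SE 0.239, adjusted p = 1.02e-04). Ikzf3, which encodes the lymphoid factor Aiolos, rose from 51.7 ± 11.7 to 107.0 ± 14.6 CPM (1.05, SE 0.189, adjusted p = 6.66e-05). Ccr6, a chemokine receptor, rose from 7.03 ± 2.74 to 27.1 ± 11.4 CPM (1.93, SE 0.394, adjusted p = 2.62e-04). T cells are known to transcribe these 3 genes as well, so that their RNA is not particular to B cells. Whether the responses differ was tested by the interaction, which called none of the 50 genes.

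**Figure D4:**
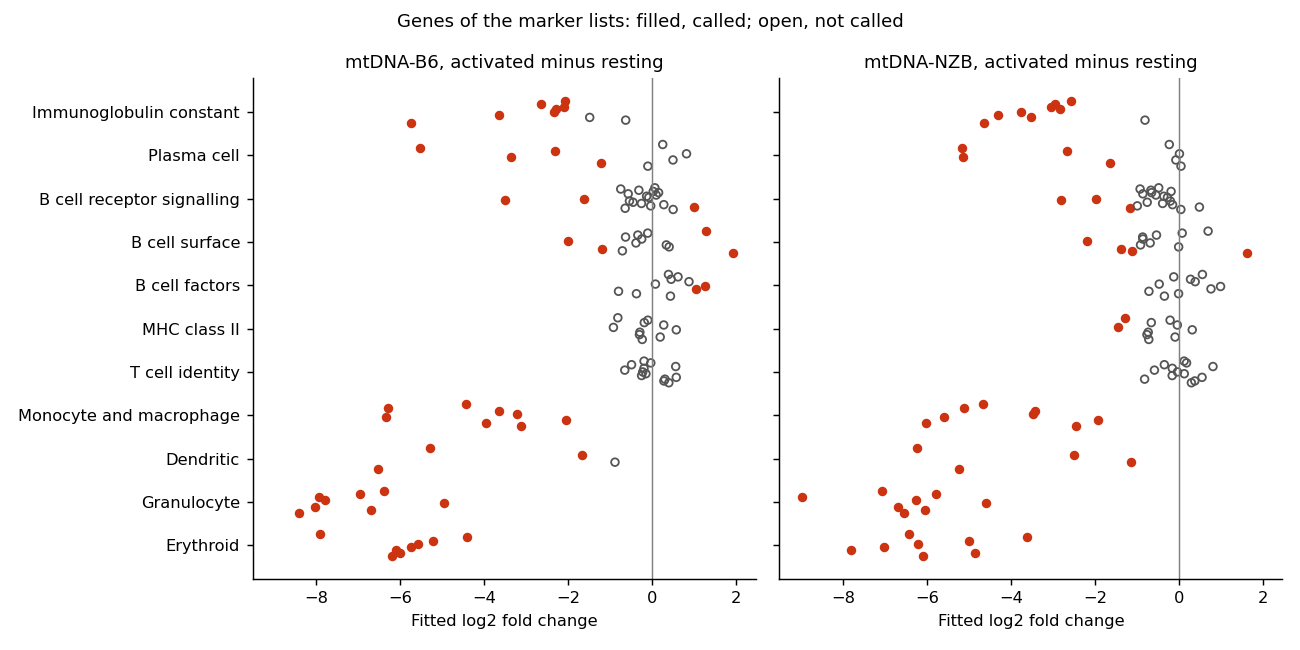
Fitted log2 fold change on activation of each tested gene of the marker lists, with mtDNA-B6 on the left and mtDNA-NZB on the right (filled, called. open, not called). Immunoglobulin constant genes lie left of most B cell receptor signalling, surface, factor and MHC class II genes, and granulocyte and erythroid genes lie farther left still.

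MHC class II genes are shared by B cells, dendritic cells and macrophages. By edgeR 0 of 10 were called lower with mtDNA-B6 and 2 of 10 with mtDNA-NZB, beside 10.6% and 14% of all genes. DESeq2 also called 0 of the 10 lower with mtDNA-B6. With mtDNA-B6, 2 had an unadjusted p under 0.05 by edgeR and moved in opposite directions, H2-DMb1 at -0.92 and H2-DMa at 0.58, both named after their values were seen. Without the 3 left-out libraries 6 of 10 were called lower with mtDNA-NZB, beside 14.6% of all genes. The sum of the 10 had medians of 5420 and 4700 CPM at rest and after activation with mtDNA-B6, and of 5545 and 4709 CPM with mtDNA-NZB. Markers of other cells moved with activation as well. Of the tested monocyte and macrophage genes 8 of 8 fell in both haplotypes, of granulocyte genes 8 of 8, and of erythroid genes 8 of 8, while of 4 dendritic genes 3 fell with mtDNA-B6 and 4 with mtDNA-NZB.

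The monocyte and macrophage list summed to 1106 to 3416 CPM at rest and 40.7 to 120.0 CPM after activation with mtDNA-B6, and to 660.6 to 3635 and 18.6 to 135.2 CPM with mtDNA-NZB. The granulocyte list went from 617.9 to 6862 CPM at rest to 5.81 to 66.8 CPM after activation with mtDNA-B6, and from 358.8 to 19543 to 5.57 to 162.5 CPM with mtDNA-NZB. The erythroid list went from 236.2 to 7383 CPM to 6.73 to 171.6 CPM, and from 102.4 to 3821 to 2.48 to 25.3 CPM. Csf1r, the receptor that macrophages need to survive, fell from 75.4 ± 28.3 to 0.870 ± 1.05 CPM with mtDNA-B6, and C1qa, a complement gene of tissue macrophages, had 0 counts in all 12 activated libraries. The dendritic list summed to 24.3 to 57.1 CPM in the 12 resting and to 2.28 to 20.6 CPM in the 12 activated libraries, and its marker Clec9a had 0 counts in the mtDNA-B6 and 1 in the mtDNA-NZB activated ones. C1qa and Clec9a were already low at rest, with medians of 1.14 and 0.580 CPM with mtDNA-B6. With mtDNA-NZB these resting medians were 1.12 and 0.334 CPM. Xcr1, another dendritic marker, had 0 counts in 3 of the 4 groups and 1 in the mtDNA-NZB resting libraries, so it shows no difference between states. The part of these other cells in the values of the B cell genes was not tested. By contrast Cd8a and Cd8b1, the chains of the CD8 co-receptor of cytotoxic T cells, were called higher in both haplotypes. Their sum was 52.3 to 111.2 CPM at rest and 161.3 to 405.3 CPM after activation with mtDNA-B6. With mtDNA-NZB it was 16.9 to 141.9 CPM and 82.0 to 533.6 CPM, which overlap. Of all genes, 7.06% were called higher and 10.6% lower with mtDNA-B6, and 9.46% and 14% with mtDNA-NZB. Of 3 platelet genes tested, 2 were called higher in each haplotype, and of 3 natural killer genes 1 was higher and 1 lower in each. Pf4, a platelet chemokine, was higher with mtDNA-B6 (3.82, SE 0.651, adjusted p = 3.26e-05), as was Gzma, a protease of killer cells (3.11, SE 0.585, adjusted p = 1.05e-04). Gzma went from 16.2 ± 9.82 to 58.1 ± 54.1 CPM with mtDNA-NZB. Klrb1c, the natural killer marker NK1.1, was lower with mtDNA-NZB (-2.79, SE 0.402, adjusted p = 2.65e-06) and went from 8.83 ± 2.61 to 2.12 ± 1.09 CPM with mtDNA-B6. None of the 13 T cell identity genes was called in any comparison by edgeR, with 6 and 7 at an unadjusted p under 0.05 on activation. Without the 3 left-out libraries 1 was called lower on activation with mtDNA-NZB. In that fit 1 was also called higher in mtDNA-NZB than in mtDNA-B6 resting cells.

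In the haplotype comparisons no gene of the 50 passed the test by edgeR in resting cells, where 1.01% of all genes were called, and none in activated cells or in the interaction, where 0% were called. At an unadjusted p under 0.05 there were 2, 1 and 3 genes. DESeq2 with the study's settings called 0 in all 3, with 2, 2 and 3 of 54 genes at an unadjusted p under 0.05.

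The members that track one another were found from residuals of log2 CPM after the group means were removed, over the 23 libraries with at least 500000 counts. These correlations are a description, since all genes of a library share its depth and its cells. Pairs among the 7 genes other than Ighm and Igkc had a Pearson r of 0.782 to 0.966, with a median of 0.886 over 21 pairs. Ighm with Igkc had an r of 0.895. Across these 2 sets, 14 pairs had an r of 0.000907 to 0.667, with a median of 0.434. Cd22 had the highest r with the mean of the other 6 of its set (0.980) and Fcer2a the lowest (0.890).

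Among the 10 other genes whose residuals were most like the mean standardised level of the members were H2-Eb1 (r = 0.983), Spib (0.980), Fcrla (0.978), Cd74 (0.970), H2-Ab1 (0.967), Fam43a (0.967), H2-Aa (0.967), Fgd2 (0.963) and H2-DMb2 (0.960). Of these, 5 encode MHC class II chains or the class II chaperones Cd74 and H2-DMb2, and Spib and Fcrla are genes of the B lineage. Among the 50 most alike genes, 29 were in the lists used here: 10 of B cell receptor signalling, 9 of MHC class II, 5 of the B cell surface, 4 transcription factors and 1 immunoglobulin gene. Genes most like Ighm and Igkc were others: Iglc2 (0.928), Eaf2 (0.927), Fcgr2b (0.916), Iglc1 (0.915) and Derl3 (0.913), the last a gene of secretory cells. Those most like the 7 were Ciita (0.980), the master regulator of MHC class II, and Spib (0.979).

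Reads of variable segment genes gave little depth. Over the 183 heavy chain variable genes, a library held 6 to 75 UMIs, and over the 160 kappa variable genes 19 to 172. In the 23 larger libraries the most abundant single segment took 6.82 to 17.4% of the heavy chain and 5.80 to 16.0% of the kappa UMIs. With mtDNA-B6 the kappa segments summed to 20.5 to 30.5 CPM at rest and to 8.15 to 27.9 CPM after activation. They overlap through activated replicate 5 alone, since the other 5 activated libraries were at 8.15 to 12.2 CPM. With mtDNA-NZB the kappa segments were at 15.1 to 321.8 CPM at rest, the highest in replicate 2 on 19 UMIs, and at 8.98 to 33.4 CPM after activation. The 3 lambda variable genes summed to 23.5 to 73.6 CPM at rest and 4.63 to 21.4 CPM after activation with mtDNA-B6, and to 16.9 to 117.2 CPM and 3.59 to 12.9 CPM with mtDNA-NZB. These lambda values did not overlap in either haplotype, although the 16.9 CPM of mtDNA-NZB resting replicate 2 is 1 UMI.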

How the data were processed

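Splenic Tconv CD4+ cells of mtDNA-B6 and mtDNA-NZB mice, resting or activated, were profiled in 24 libraries by bulk MARS-seq, which reads the 3′ end of polyadenylated RNA. According to the study's methods and the submitters' processing notes, cutadapt trimmed the reads, STAR aligned them to the last 1000 bases of transcripts on GRCm39, and HTSeq counted them per gene. The authors deposited counts corrected by unique molecular identifier (UMI), whole numbers without scaling, and a further table with larger counts that served as an alternative. A UMI marks 1 molecule at its 3′ end, so counts were not divided by transcript length. In the second table, 1 column matched no sample and was not used. Depth was 51409 to 6449395 UMI counts. No 2 libraries of a group were near-identical (the lowest chi-square divided by its degrees of freedom was 2.97).

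Tools were edgeR 4.0.16 and DESeq2 1.42.0 under R 4.3.3, and Python 3.11.15. The UMI counts of 10566 genes that passed filterByExpr were scaled by TMM and fitted with edgeR's quasi-likelihood test over the 4 groups, with Benjamini-Hochberg adjustment over all genes. Genes were called at an adjusted p up to 0.05 with a log2 change of 1 or more in size, the interaction without a limit on fold. Standard errors were taken from the F statistic, as the size of the change over its square root. Likeness used log2 CPM with a prior count of 2.

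The members and lists were chosen with earlier results of these data known. Genes named are the 9 members, up to 3 called genes per list and comparison with the largest change, no overlap between groups and a mean of 10 CPM in 1 of them, the 10 genes most like the members, and markers of other cells. Of the genes picked by likeness, 1 is left out of the text. The alternatives were DESeq2, other scalings and filters, the second table, the library set or a replicate block as a term, 12 libraries at a time, and leaving out each library or the study's 3. Chosen after the data were seen were the values without mtDNA-NZB activated replicates 1 and 2, within library sets, and of Ighm and Igkc apart from the other 7, also with each library left out.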

Additional observations from a re-analysis of the deposited data

Results flagged for a closer look

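In 6 of 64 sets of 6 libraries tested over 16 measures (the 9 members, 3 sums and 4 ratios in 4 groups), 1 library lay far from the others by Dixon's criterion, which chance gives in about 1 of 20 sets. Of these, 4 belong to mtDNA-B6 resting replicate 2, which was highest of its group for Ms4a1 (67.5 CPM, others 12.9 to 24.995), Pax5 (102.3 CPM, others 18.8 to 42.4), Ebf1 (33.1 CPM, others 4.89 to 14.8) and Fcer2a (123.1 CPM, others 18.0 to 57.0). These genes track one another, so they are 1 pattern and not 4. The same library held 13978 CPM of Ighm and Igkc, within the 12007 to 20864 CPM of its group.

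Igkc was highest in mtDNA-B6 activated replicate 1, at 2689 CPM where the other 5 held 770.0 to 1432 CPM, which is still below the lowest resting library at 3682 CPM. The ratio of Ighm and Igkc to the other 7 genes was 173.9 in mtDNA-NZB resting replicate 6, where the others were at 9.19 to 49.5. In that library Igkc and Ighm summed to 34288 CPM, the 7 genes to 197.1 CPM, the granulocyte list to 19543 CPM and the T cell identity list to 6336 CPM, and the part of these in its ratio was not tested.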

How the results depend on the processing

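For the 5 counts of called B-lineage genes and the 4 log2 ratios of the summed members, most alternatives changed nothing beyond the spread. Without the 3 libraries that the study left out, 25 of the other B-lineage genes were called on activation with mtDNA-NZB rather than 15, of which 24 fell. All 15 stayed among them and Cd72, Cd83, Cxcr5, Gpr183, Hhex, Ighd, Ly6d, Lyn, Pik3ap1 and Siglecg were added. Of all genes 25.1% were called in that fit. Without mtDNA-NZB activated replicate 6 alone the count was 23, 22 of them lower, so this library decides most of the difference. The interaction then called 1 gene without the 3 libraries, Bach2 (log2 difference -0.96, SE 0.238, edgeR adjusted p = 0.0498, beside 0.207 with all 24). Without Igkc and Ighm, the log2 ratio of summed members on activation was 0.23 rather than -1.77 with mtDNA-B6, the opposite direction, and -0.22 rather than -2.31 with mtDNA-NZB, because those 2 genes make up nearly the whole sum.

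Leaving out each library in turn gave 13 to 17 calls on activation with mtDNA-B6, 14 to 23 with mtDNA-NZB, and 0 in the other 3 comparisons. The summed members ranged from -1.99 to -1.66 and from -2.57 to -2.09 on activation, from -0.03 to 0.32 between resting haplotypes and from -0.61 to -0.14 between activated ones. The haplotype ratio at rest was -0.33 without the 3 libraries and -0.16 as a ratio of medians. Libraries of one label number did not deviate together in every pair (r from -0.158 to 0.253). The labels do not say whether a number marks 1 mouse, and the main fit does not pair samples by it. With a replicate block by label number 17 and 14 genes were called on activation, and by title number 15 and 14. The replicate block as a mean of same-numbered libraries gave -1.75 and -2.02 for the summed members. The block changed no call of the counts by over 1.5 times. Depth limits mtDNA-NZB resting replicate 2 most, where 3 counts are worth 50.8 CPM.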
